A study of Mus musculus with 5 samples.

Results

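Integrins are surface receptors made of 1 alpha and 1 beta chain, and 10 chain genes known from T cells were examined here: Itga1, Itga2, Itga4, Itga5, Itga6, Itgae, Itgav, Itgb2, Itgb3 and Itgb7. They were chosen by name, and each was represented by its row of the array table that was paired with a single gene symbol, taking the row with the highest mean where a gene had more than 1. Of the 10 genes, 8 had such a row among the 12267 genes measured in this way. Itga1 and Itga4 lay only on rows paired with several symbols and were not analysed here.

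The arrays compared CD4SP cells, CD4-positive thymocytes without CD8 taken by cell sorting. The donors were C57BL/6J mice, 4 to 6 weeks old. There were 3 arrays from PLZF transgenic mice and 2 from wild type mice, each made from cells of pooled mice and called a biological replicate in the labels. PLZF is a transcription factor of the BTB zinc finger family that innate-like lymphocytes, NKT cells among them, need for their development. The sources used here do not give the promoter that drives the transgene. The comparison asks which transcripts differ between the CD4SP cells of PLZF transgenic mice and those of wild type mice.

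An integrin reaches the cell surface as a pair, so the level of one chain can limit that of its partner. On a resting T cell most integrins are folded and bind weakly, and signals from the T cell receptor or chemokine receptors switch them to high affinity through the small GTPase Rap1 and the adaptors talin and kindlin, which bind the tail of the beta chain. In the thymus, integrins hold developing cells to epithelium and matrix, and in mature T cells they steer homing and retention in tissues.

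The arrays had a median intensity between 59.0 and 60.3. The submitters' processing, RMA, equalises array distributions in its standard form, so alike medians say little about the signal before it. Log2 values correlated across genes at r = 0.998 within the PLZF transgenic arrays, 0.996 within the wild type pair and 0.990 to 0.991 between genotypes. Cd4, Cd8a and Zbtb16, the gene that encodes PLZF, were not analysed here, so neither the sort nor the transgene was checked by its own gene. All 6 measured T cell markers (Cd247, Cd5, Cd2, Zap70, Themis and Ccr7) lay above 6.93, the median of gene means, on the log2(intensity + 1) scale used for all levels below, and 2 of them, Cd2 and Cd5, were lower in transgenic cells by the test. Probes differ in brightness, so levels are compared between arrays for one gene and not between genes.

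None of the 8 measured integrin chains passed the test between PLZF transgenic and wild type cells (limma, Benjamini-Hochberg adjusted p under 0.05 over all 12267 genes), against 4.74% of all genes. The log2 changes ran from -0.46 for Itga6 to 0.61 for Itgae, with a median of -0.04 beside a median of 0 over all genes. At an unadjusted p under 0.05 there were 2 chains with higher values, Itgae and Itgb7, and 3 with lower values, Itga6, Itgb2 and Itgb3. That rule took in 16.8% of all genes, and 27.9% of genes at or above the median of gene means, where 7 of the 8 chains lay. The remaining chains, Itga2, Itga5 and Itgav, had changes of at most 0.05 in size. The transgenic and wild type arrays did not overlap for 6 chains, against 27.7% of all genes and 42.5% of those at or above the median.

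**Figure D1:**
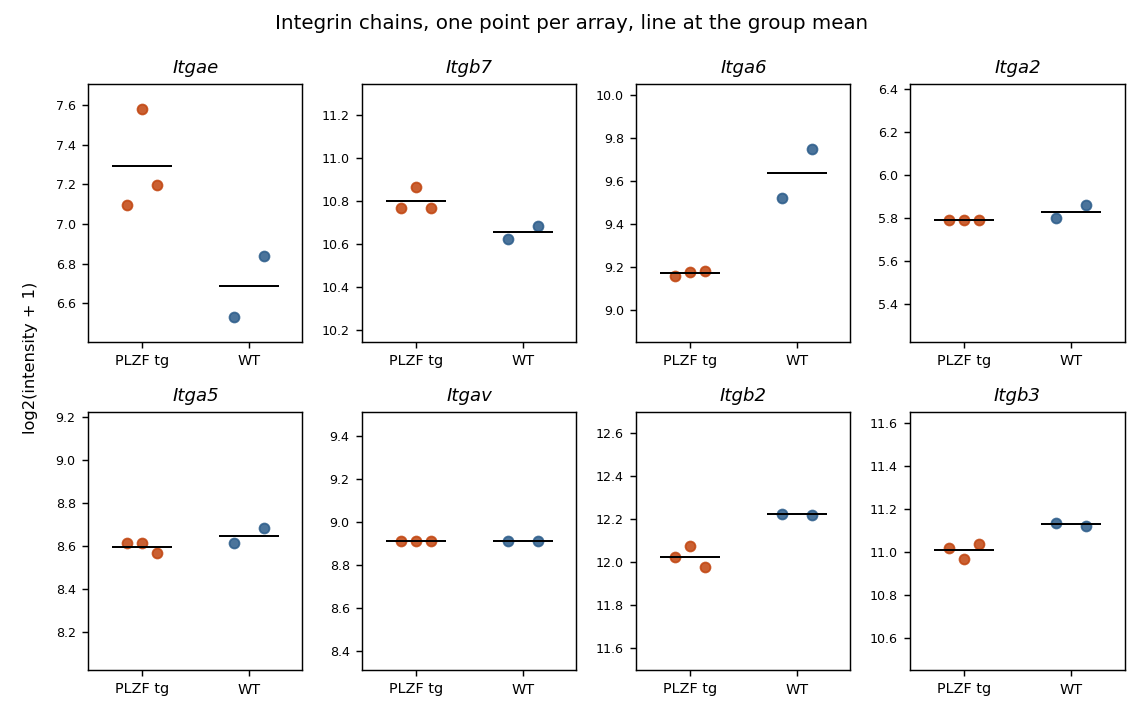
Log2(intensity + 1) of the 8 measured integrin chains, 1 point per array, with PLZF transgenic arrays (n = 3) on the left and wild type arrays (n = 2) on the right of each panel and a line at each group mean. Each panel has its own range on the vertical axis. The transgenic points of Itgae and Itgb7 lie above both wild type points, those of Itga6, Itgb2 and Itgb3 below both, and Itgav has the same value on all 5 arrays.

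Itgae, which encodes the αE chain known as CD103, had the largest difference of the 8. Its product pairs with the Itgb7 chain into a receptor for E-cadherin, which holds T cells against epithelium. Its log2 values were 7.10, 7.58 and 7.20 in PLZF transgenic cells, against 6.53 and 6.84 in wild type cells. Its mean over all arrays, 7.05, was close to the median of gene means, 6.93, and both wild type values lay below that median. All 3 transgenic arrays lay above both wild type arrays, but both groups were spread, with SDs of 0.26 (n = 3) and 0.22 (n = 2). The estimate was a 1.52-fold higher level with a 95% interval from 1.00 to 2.31, and it did not pass (log2 change 0.61 ± 0.21, SE, limma adjusted p = 0.297). Leaving out transgenic replicate 2, the highest array, gave a log2 change of 0.46. Over all alternative settings the estimate stayed between 0.45 and 0.76, and the adjusted p between 0.0635 and 0.723.

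Markers of other lymphocytes were set beside Itgae. The 4 measured of 7 listed markers of NK and innate-like cells (Tbx21, Gzma, Gzmb and Xcl1) had a mean log2 level of 6.65 to 6.75 in transgenic arrays, against 6.54 to 6.58 in wild type arrays, and none of the 4 passed the test. Gzma had the same value on 4 of the 5 arrays. The 3 measured of 7 listed B cell markers (Cd79b, Ms4a1 and Ebf1) had a mean of 6.03 to 6.16 in transgenic arrays, against 5.95 to 5.99 in wild type arrays, and none passed. The part of these cells in the Itgae values was not tested. In sorted populations such as these, more cells with a transcript and more transcript per cell cannot be told apart.

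Itgb7 encodes the β7 chain, which pairs with the αE chain or, in the receptor that takes lymphocytes to the gut, with the α4 chain. Its log2 values were 10.77, 10.87 and 10.77 in PLZF transgenic cells, against 10.63 and 10.69 in wild type cells. The groups did not overlap, and transgenic replicates 1 and 3 had the same value. The difference was 1.11-fold with a 95% interval from 1.01 to 1.21 (log2 change 0.15 ± 0.04, SE, limma adjusted p = 0.247). Both measured chains of the αEβ7 receptor had higher transgenic values on every array, and neither passed the test. The α4 partner, encoded by Itga4, was not analysed here.

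Itga6 encodes the α6 chain, which joins the β1 or β4 chain into a laminin receptor and is carried by thymocytes and by many epithelial and endothelial cells. Its log2 values were 9.16, 9.18 and 9.18 in PLZF transgenic cells, against 9.52 and 9.75 in wild type cells. The 3 transgenic arrays were close together (SD 0.01) and below both wild type arrays, which differed more from each other (SD 0.16, n = 2). The level was 1.38-fold lower in transgenic cells (log2 change -0.46 ± 0.08, SE, 95% interval -0.69 to -0.23, limma adjusted p = 0.0840). The call depended on the analysis: the adjusted p was 0.0455 with median centring, 0.0208 with cyclic loess, 0.0254 with quantile normalization and 0.0378 when dim genes were filtered out. Among the 4027 genes with 5 different values over the arrays, of which 25.9% were called, Itga6 had an adjusted p of 0.0162 (limma). Without transgenic replicate 1, 2 or 3 it was 0.302, 0.283 and 0.294, while the log2 change stayed between -0.47 and -0.46. The size depended more on the wild type arrays: the log2 change was -0.58 without wild type replicate 1 and -0.35 without replicate 2.

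Endothelial markers were measured beside Itga6. Of 6 listed, Pecam1, an adhesion receptor that leukocytes also carry, was 10.16 to 10.21 in transgenic arrays, against 10.44 and 10.53 in wild type arrays, and fell (log2 change -0.30, limma adjusted p = 0.0472). Tek, the other one measured, had the value 4.82 on all 5 arrays. Mean levels of the 5 thymic epithelial markers measured were 6.45 to 6.47 in transgenic and 6.41 to 6.46 in wild type arrays. Among the 3 measured markers of immature thymocytes, Dntt, which encodes the terminal transferase of receptor rearrangement, had log2 values of 6.40, 6.65 and 6.82 in transgenic cells, against 7.07 and 7.26 in wild type cells, with a limma adjusted p of 0.244. Rag2, which encodes a subunit of the recombinase, had 4.64, 4.64 and 4.72 in transgenic cells, against 4.49 and 4.59 in wild type cells. Ptcra, which encodes the pre-T cell receptor alpha chain, had a log2 change of 0.02, and neither passed. The part of these cell types in the Itga6 values was not tested.

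Itga2 and Itga5 encode chains that pair with the β1 chain, Itga2 for collagen and Itga5 for fibronectin. The product of Itga2 is also known as CD49b, a marker of NK cells. Itga2 had a log2 value of 5.79 on all 3 transgenic arrays, against 5.80 and 5.86 on the wild type arrays. It was the one chain of the 8 below the median of gene means. The groups did not overlap, yet transgenic and nearest wild type values lay within 0.01 of each other, and the log2 change was -0.04 with a 95% interval from -0.10 to 0.03 (limma adjusted p = 0.458). Itga5 had log2 values of 8.61, 8.61 and 8.57 in transgenic cells, against 8.61 and 8.68 in wild type cells. These groups overlapped, since wild type replicate 1 had the same value as 2 transgenic arrays, and the change of -0.05 (95% interval -0.14 to 0.04, limma adjusted p = 0.458) was 0.0071 after quantile normalization, with the sign turned. The β1 chain gene, Itgb1, was not analysed here.

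Itgav encodes the αv chain, which pairs with several beta chains, the Itgb3 chain among them, to bind matrix proteins and latent TGF-beta. Its brighter row had a log2 value of 8.91 on all 5 arrays, identical within a tolerance of 0.000005. Of all genes, 11.9% had the same value on all arrays in this way, and only 32.8% had 5 different values. A second row of the gene had log2 values of 7.43, 7.25 and 7.27 in transgenic cells, against 7.10 and 7.41 in wild type cells, and these groups overlapped. An identical summary value carries no information on spread, so the limma adjusted p of 1 for this row says little about how alike the cells were.

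Itgb2 encodes the β2 chain of the leukocyte integrins, which with the αL chain forms LFA-1, the receptor for ICAM proteins in T cell contacts. Its log2 values were 12.02, 12.07 and 11.97 in PLZF transgenic cells, against 12.22 and 12.22 in wild type cells. All transgenic arrays lay below both wild type arrays, and the level was 1.15-fold lower (log2 change -0.20 ± 0.03, SE, 95% interval -0.30 to -0.09, limma adjusted p = 0.0917). The adjusted p was 0.0461 with cyclic loess, 0.0262 with quantile normalization and 0.0426 when dim genes were filtered out, where the change was -0.22, -0.25 and -0.20. These were the only 3 of 17 alternatives in which Itgb2 passed, and its limma adjusted p was as high as 0.626, with array weights. The chains that pair with it, encoded by Itgal, Itgam and Itgax, were not analysed here. Itgad, the remaining partner, had log2 values of 5.48, 5.35 and 5.40 in transgenic cells, against 5.66 and 5.26 in wild type cells, with overlapping groups.

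Because macrophages and monocytes also carry the Itgb2 chain, their markers were compared. The mean log2 level of the 5 measured of 7 listed (Cd68, Mpeg1, Csf1r, Adgre1 and Cd14) was 6.38 to 6.43 in transgenic arrays, against 6.57 to 6.78 in wild type arrays. Cd68, which encodes a lysosomal membrane protein, had values of 8.39 to 8.63 in transgenic cells, against 8.86 and 8.96 in wild type cells. Mpeg1 had 6.59, 6.78 and 6.78 in transgenic cells, against 6.97 and 7.81 in wild type cells. Cd14 had 5.77 to 5.99 in transgenic cells, against 6.08 and 6.26 in wild type cells, and Csf1r had a log2 change of 0.04. Adgre1, which encodes a macrophage surface antigen, was at 4.68 on all 5 arrays, and none of the 5 passed the test. The part of these cells in the Itgb2 values was not tested.

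Itgb3 encodes the β3 chain, which pairs with the αv chain in many cells and with the αIIb chain on platelets. Its log2 values were 11.02, 10.97 and 11.04 in PLZF transgenic cells, against 11.14 and 11.12 in wild type cells. The groups did not overlap, but the difference was small, 1.09-fold lower in transgenic cells (log2 change -0.12 ± 0.03, SE, 95% interval -0.20 to -0.05, limma adjusted p = 0.128). It passed under none of the alternatives tried, with adjusted p values between 0.0627 and 0.642. The platelet partner Itga2b had a log2 value of 7.02 on all 3 transgenic arrays, against 7.02 and 7.01 on the wild type arrays. The platelet marker Gp5 had values of 5.29 to 5.61 in transgenic cells, against 5.52 and 6.02 in wild type cells. Treml1, another, had 6.63 on the transgenic arrays, against 6.63 and 6.38 on the wild type arrays.

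**Figure D2:**
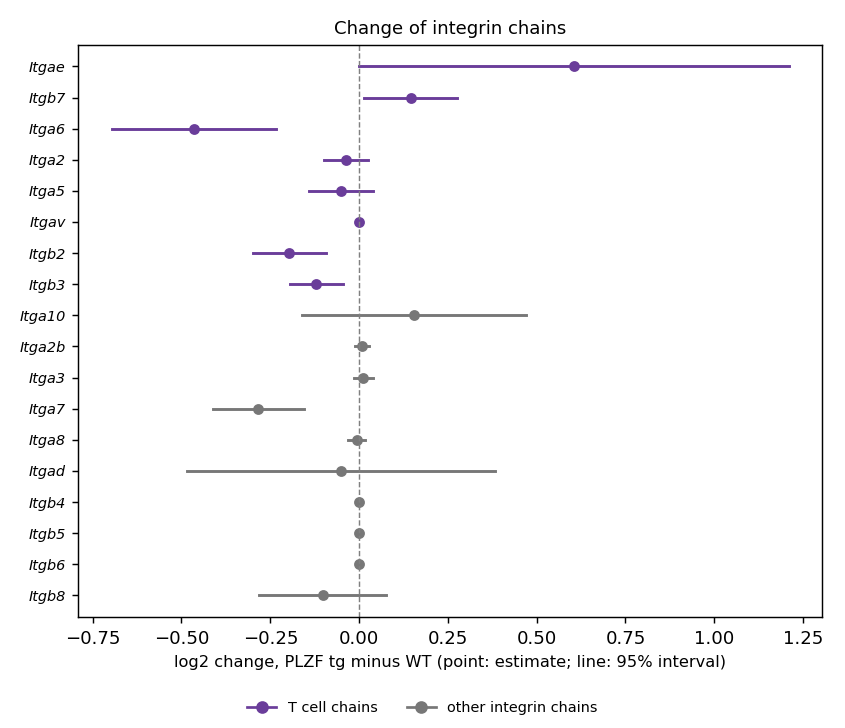
Log2 change, PLZF transgenic (n = 3) minus wild type (n = 2), of the 8 T cell integrin chains and 10 other measured chains, with the 95% interval of the limma fit as a line. Itgae (0.61) and Itga6 (-0.46) lie farthest from 0, and none of the 18 chains passed the threshold.

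Of 16 other integrin chains listed, 10 were measured and none passed the test (limma), against 4.74% of all genes, with 1 at an unadjusted p under 0.05, against 16.8% of all genes. That one was Itga7, which encodes a laminin receptor chain best known from muscle, with log2 values of 6.53, 6.49 and 6.53 in transgenic cells, against 6.74 and 6.86 in wild type cells (log2 change -0.28 ± 0.04, SE, limma adjusted p = 0.0708). It was also the one among the 10 whose groups did not overlap, against 27.7% of all genes. Itgb4, Itgb5 and Itgb6 had the same value on all 5 arrays, at 6.64, 6.10 and 4.28. Itga10, Itgb8, Itgad, Itga8, Itga3 and Itga2b had changes between -0.10 for Itgb8 and 0.15 for Itga10. Of these 10 chains, 8 were dimmer than the median gene, and array background can hide a change there.

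The genes whose profile over the 5 arrays was most like that of Itgae, by the root mean square difference of centred log2 values, were Trpm6 (0.0603), Cpm (0.0651) and Enpp5 (0.0806). Trpm6 encodes a magnesium channel and Cpm a carboxypeptidase, and their log2 changes were 0.60 and 0.64, beside 0.56 for Enpp5. The genes most like Itga6 were Hbs1l (0.0251), E2f3 (0.0259), which encodes a cell cycle transcription factor, and Mrpl58 (0.0301). Their log2 changes were -0.46, -0.42 and -0.50. None of the 6 passed the test, with limma adjusted p values between 0.0604 for Mrpl58 and 0.205 for Trpm6. The 6 were picked for likeness over the same 5 arrays, so their changes follow from the choice and are not a separate result.

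Transcripts of the machinery that switches integrins on were examined next. Of 49 listed activation and linkage genes, 33 were measured, and 8 fell and 2 rose in PLZF transgenic cells (limma adjusted p under 0.05). All 10 were among the 26 measured members at or above the median of gene means, a class in which 8.53% of genes were called, 5.35% lower and 3.18% higher. Over all levels 3.02% of genes fell and 1.72% rose. The list was chosen with earlier results of these data known, so its count beside these shares is not a test of the list. The median log2 change of the list was -0.03, beside 0 over all genes. The number of calls moved with the arrays used: without transgenic replicate 1, 2 or 3 it was 1, 0 and 0, and with array weights 0, while without wild type replicate 1 or 2 it was 14 and 10. At an unadjusted p under 0.05 the first 4 of these fits had 14, 14, 15 and 12. The sizes moved less, and each of the 10 genes kept its sign in all 17 alternatives. Actn1, the only one of the 10 with several rows, ran from -0.64 to -0.42 over the 17. With the mean of a gene's rows in place of the brightest, the list had 9 calls, 2 higher and 7 lower. With 1 array left out in turn, Rasgrp1 ran from -0.64 to -0.60 and Rasgrp2 from -1.02 to -0.89.

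Rasgrp2 and Rasgrp1 had the largest changes in the list, both downward. Rasgrp2, which encodes the Rap1 activator CalDAG-GEFI, had log2 values of 9.62, 9.48 and 9.51 in transgenic cells, against 10.43 and 10.56 in wild type cells, a 1.94-fold lower level (log2 change -0.96 ± 0.07, SE, limma adjusted p = 0.0200). Rasgrp1, a Ras activator downstream of the T cell receptor, had 11.56, 11.61 and 11.58 in transgenic cells, against 12.18 and 12.22 in wild type cells, a 1.54-fold lower level (limma adjusted p = 0.00968). Rapgef2, another exchange factor for Rap1, fell by 0.25 on the log2 scale. In each of these genes the groups stood apart by more than the range of either group. Rapgef1, of the same class, changed by -0.05 with a limma adjusted p of 0.458.

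Both Rap1 genes were also lower. Rap1b had log2 values of 10.74, 10.69 and 10.69 in transgenic cells, against 11.13 and 11.13 in wild type cells, a 1.34-fold lower level (limma adjusted p = 0.0103). Rap1a had 8.18, 8.25 and 8.27 in transgenic cells, against 8.57 and 8.61 in wild type cells, a 1.28-fold lower level (limma adjusted p = 0.0289). Sipa1, which encodes a protein that switches Rap1 off, was 1.13-fold lower and did not pass (limma adjusted p = 0.0528). Of the Rap1 effectors, Apbb1ip, whose product RIAM brings talin to integrins, rose 1.26-fold, at 10.78, 10.74 and 10.82 in transgenic cells, against 10.48 and 10.41 in wild type cells (limma adjusted p = 0.0371). The effector gene Rassf5 had a log2 change of 0.01, and Stk4, which encodes the kinase MST1 that works with the Rassf5 product, fell by 0.14.

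**Figure D3:**
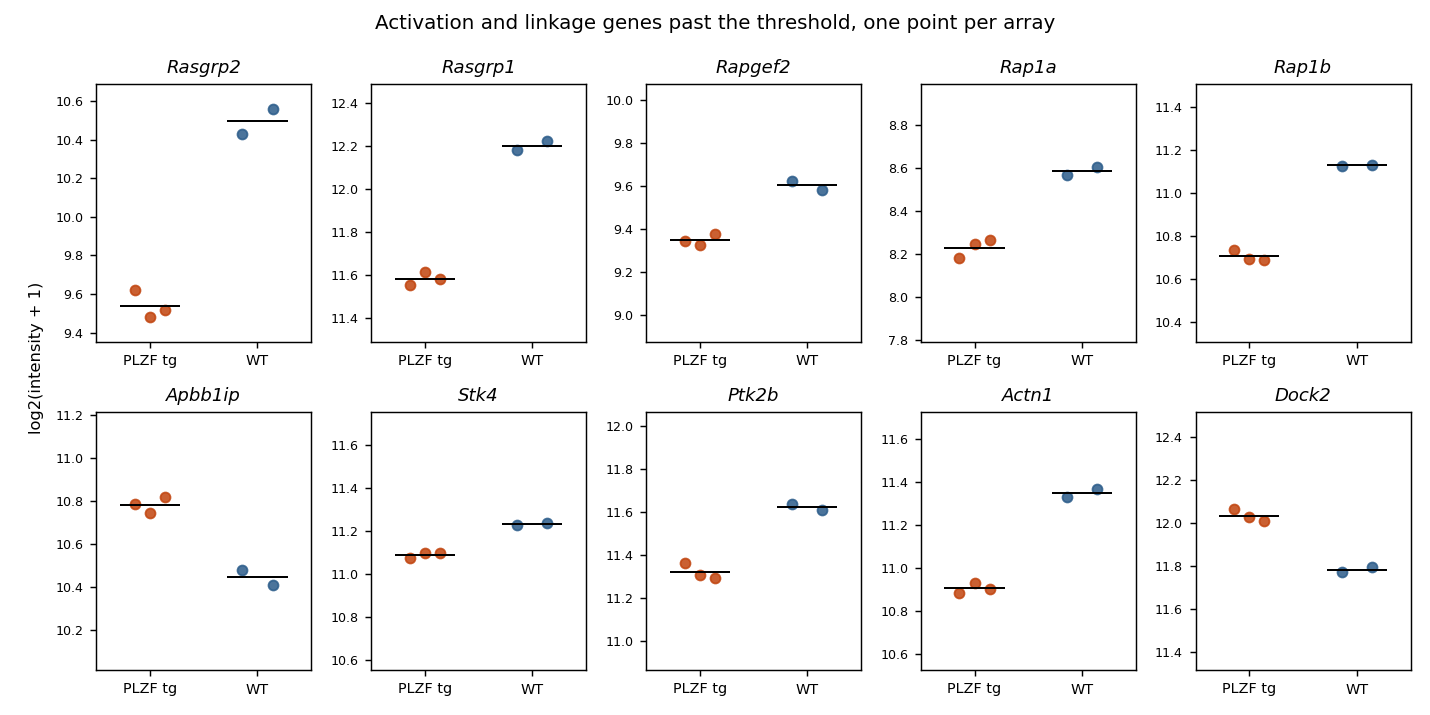
Log2(intensity + 1) of the 10 activation and linkage genes that passed the threshold, 1 point per array, with PLZF transgenic arrays (n = 3) left of wild type arrays (n = 2), a line at each group mean and a separate vertical range in each panel. In the 8 genes that fell, the 3 transgenic points lie below both wild type points, and in Apbb1ip and Dock2 they lie above both.

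To show regulatory sequence of genes that moved together, the 250 bases before a start site are printed for Rasgrp1 and Rap1b, beside those of Itgb7, an integrin chain with higher transgenic values. These genes were picked by hand and not by a set rule, so their difference in motifs is not a result about genes that fell or rose. They are from RefSeq on GRCm38.p6, 5′ to 3′ on the gene's strand, which is the minus strand for all 3 genes. Capitals mark the GC box GGGCGG, a motif bound by SP and KLF factors, read on either strand.
Rasgrp1, chr2:117342878-117343127: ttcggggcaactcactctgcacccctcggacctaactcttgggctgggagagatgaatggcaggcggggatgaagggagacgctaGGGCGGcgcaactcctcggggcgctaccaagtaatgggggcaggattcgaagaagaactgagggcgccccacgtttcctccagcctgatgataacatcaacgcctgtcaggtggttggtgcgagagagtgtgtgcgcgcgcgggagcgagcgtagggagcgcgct
Rap1b, chr10:117845975-117846224: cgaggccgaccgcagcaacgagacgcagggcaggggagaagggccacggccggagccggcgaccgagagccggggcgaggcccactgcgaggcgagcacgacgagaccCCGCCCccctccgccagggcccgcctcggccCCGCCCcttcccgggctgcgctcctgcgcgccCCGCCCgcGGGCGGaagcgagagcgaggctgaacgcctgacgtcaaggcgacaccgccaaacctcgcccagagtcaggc
Itgb7, chr15:102231936-102232185: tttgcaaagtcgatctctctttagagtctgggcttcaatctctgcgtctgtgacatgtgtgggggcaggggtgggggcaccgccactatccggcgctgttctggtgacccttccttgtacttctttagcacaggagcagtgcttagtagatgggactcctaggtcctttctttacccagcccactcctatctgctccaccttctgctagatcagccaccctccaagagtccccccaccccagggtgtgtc
The Rasgrp1 window held 1 GC box, the Rap1b window 4 and the Itgb7 window 0. Of all 32851 windows of this length, 32.7% held at least 1. Windows were found for 4 of the 8 measured chains, of which 1 (Itga5) held the motif, and for 8 of the 10 activation genes past the threshold, of which 5 did. A gene counted if any of its windows held the motif, and Rasgrp2 and Rapgef2 had several. The 32.7% is a share of windows, so it is not a background rate for these counts of genes. Of the activation genes not printed, Actn1, Rasgrp2 and Stk4 held the motif, and Rapgef2, Apbb1ip and Dock2 did not. A match describes the sequence and is not a binding site.

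The other genes of the list past the threshold were Actn1, Ptk2b and Dock2. Actn1, which encodes the actin cross-linker alpha-actinin, was 1.36-fold lower, at 10.89, 10.93 and 10.90 in transgenic cells, against 11.33 and 11.37 in wild type cells (limma adjusted p = 0.0106). These values are from the row with the highest mean of the 3 that Actn1 had. Ptk2b, which encodes the kinase PYK2 that acts after integrin engagement, fell by 0.30, and Dock2, which encodes a Rac activator of lymphocyte migration, rose by 0.25 (limma adjusted p = 0.0286 and 0.0236). Fermt3, the kindlin of blood cells, had log2 values of 10.75, 10.76 and 10.75 in transgenic cells, against 10.66 and 10.75 in wild type cells, which overlap. Vcl, which encodes vinculin, had the same value on all arrays. Of the T cell adaptors for integrin activation, Fyb was 1.34-fold lower and Skap1 1.18-fold higher, and neither passed (limma adjusted p = 0.0629 and 0.164). Sharpin, Parvg and Nisch, the other bright members named by rule, had changes of 0.07, 0.08 and -0.03.

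**Figure D4:**
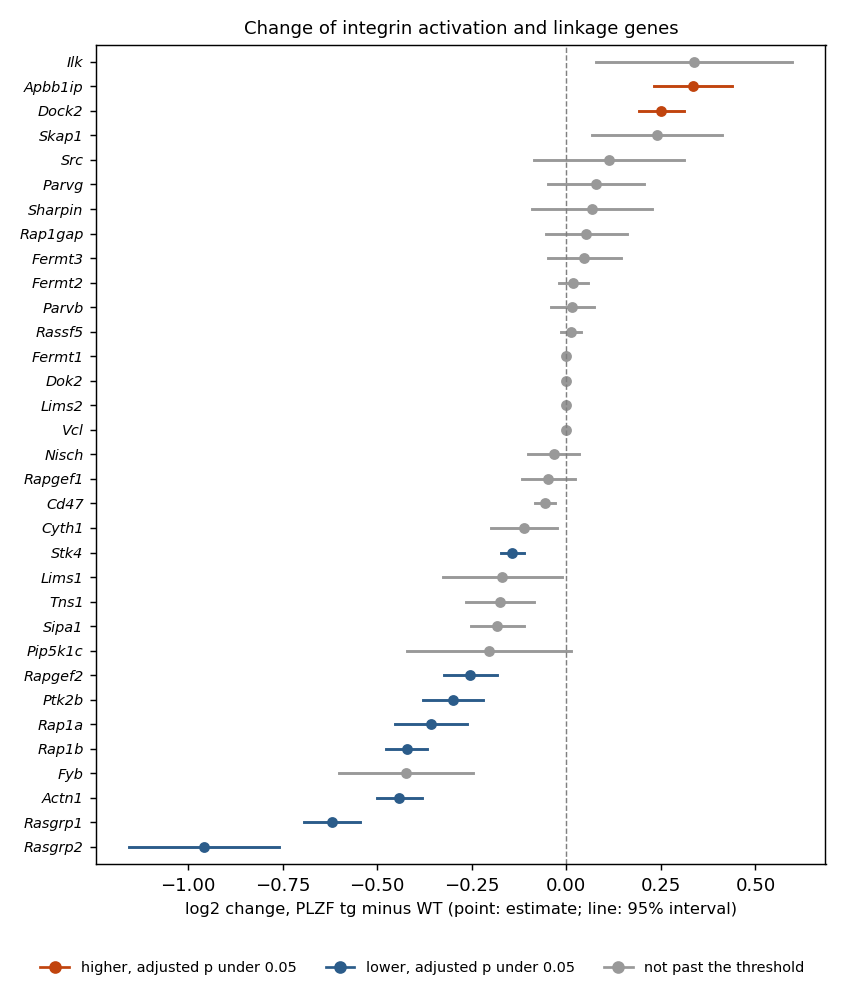
Log2 change, PLZF transgenic (n = 3) minus wild type (n = 2), of the 33 measured activation and linkage genes, ordered by size, with the 95% interval of the limma fit as a line and colour for those past an adjusted p of 0.05. Changes run from -0.96 for Rasgrp2 to 0.34 for Ilk, whose wide interval did not pass.

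The rows of integrin ligand genes were mostly dim on these arrays, which, since probes differ in brightness, is not a measure of their expression. Of 36 listed, 22 were measured, 3 of them at or above the median of gene means, and 1 passed the test, or 4.55% of those measured beside 4.74% of all genes. It was Icam2, a ligand of LFA-1 that lymphocytes carry, with log2 values of 9.19, 9.15 and 9.20 in transgenic cells, against 9.40 and 9.43 in wild type cells, a 1.18-fold lower level (limma adjusted p = 0.0337). The other members at or above the median were Adam15, with a change of -0.15 (limma adjusted p = 0.0623), and Col1a1, with a change of 0.02. Of the dimmer members, Tgfb3 had -0.16, Madcam1 0.13, Lamc1 -0.05 and Lama5 0.03, and none passed. Vcam1, which encodes the vascular ligand of integrins with the α4 chain, was at 4.85 on all 5 arrays. Icam2 did not pass without transgenic replicate 1, 2 or 3, where none of the ligand genes did (limma), with 3 at an unadjusted p under 0.05 in each of these fits.

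**Figure D5:**
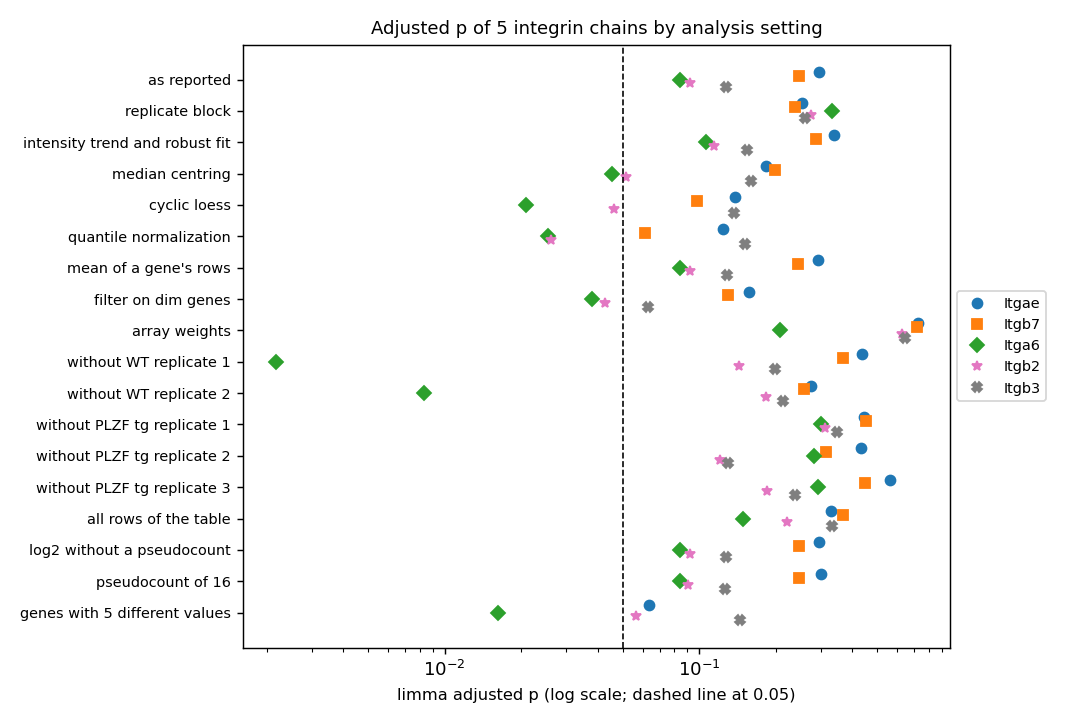
Limma adjusted p on a log axis of the 5 integrin chains with an unadjusted p under 0.05, under the reported analysis (top) and each alternative setting, with a dashed line at 0.05. Itga6 crosses the line in 7 of 17 alternatives and Itgb2 in 3, while Itgae, Itgb7 and Itgb3 stay to the right of it in all that were run.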

How the data were processed

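Sorted CD4SP RNA was amplified, labelled with biotin and hybridised to exon arrays, per the labels' protocols. Tools named in the submitters' processing notes are Affymetrix Expression Console and RMA, with the mm9 build and no versions. The values deposited by the authors are linear intensity, 65529 rows by 5 arrays. RMA in its standard form equalises array distributions, so a shift common to most genes can be lost. The platform annotation paired 14011 rows with 1 symbol, 864 with more than 1 and left 50654 unnamed. For the 1257 genes with several rows the highest-mean row was kept.

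Values were analysed as log2(intensity + 1) with no filter on level, using limma 3.58.1 (lmFit, eBayes) under R 4.3.3, PLZF transgenic minus wild type, and Benjamini-Hochberg adjustment over 12267 genes. There were 3 residual degrees of freedom and an estimated prior of 0.5, so the moderation was weak, and the number of arrays limits the precision. Errors are the SE of the fit or the SD over arrays. The procedure was run on simulated data with planted changes larger than that of any integrin chain here. That run does not show how well changes of the size reported for the chains are detected. Members and lists were chosen with earlier results of these data known. All members and other measured chains were named, and of the activation and ligand lists those past the threshold and up to 6 further members with the highest mean. For the member with the largest rise and the one with the largest fall, the 3 genes with the nearest profile were named. Other genes named with values (Rapgef1, Rassf5, Skap1, Ilk, Vcl, Vcam1) were chosen after their values were seen. Cell type markers were planned by list, and no rule chose those printed singly. Mm9 coordinates were not used, and promoter windows come from RefSeq on GRCm38.p6. The closing section gives the alternatives.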

Additional observations from a re-analysis of the deposited data

How the results depend on the processing

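The alternatives changed counts of calls more than sizes of change. Counts are given for all genes, the 8 integrin chains, the 10 other chains, the 33 activation and linkage genes and the 22 ligand genes, which were 581, 0, 0, 10 and 1 as reported. Leaving out 1 array in turn gave 4 to 2890, 0 to 2, 0 to 3, 0 to 14 and 0 to 6. The low ends came without a transgenic array, which gave 4, 45 and 10 over all genes for replicates 1, 2 and 3. The high ends came with a lone wild type array, assumed to vary like the transgenic ones, and such fits called Itga2 with changes of -0.068 and -0.0068 (limma adjusted p = 2.82e-04 and 0.0249) and Itga6 with -0.58 and -0.35. Array weights gave 1 over all genes and 0 for activation and for ligand genes (limma, 12 and 1 at an unadjusted p under 0.05). An adjusted p of 0.1 gave 1031, 2, 1 and 3 for all genes, the chains, other chains and ligands, and 0.01 gave 63, 1 and 0 for all, activation and ligand genes. Fitting and adjusting over all rows of the table, which refits the variance moderation too, gave 96, 1 and 0 for these. Cyclic loess gave 1089 calls (508 higher and 581 lower, against 211 and 370), quantile normalization 1130 (577 and 553), and each 2 chains and 1 other chain, while median centring gave 1 and 1. The dim filter gave 941 over all genes, 2 chains and 2 ligands, and genes with 5 different values gave 1043 and 1 chain. Itga6 was the chain called under all of these with a log2 change of -0.46 after centring, -0.44 after loess, -0.42 after quantile normalization, and -0.46 among bright genes or those with 5 different values. Itgb2 had -0.22, -0.25 and -0.20 under loess, quantile normalization and the dim filter. Itga5 turned to 0.0071 after quantile normalization. No other of the 8 integrin chains changed sign under any alternative. The signs of the 10 other chains were not followed through the alternatives, and the cause of these moves was not tested.

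The replicate numbers shared by the genotypes did not mark a common source in the labels. Deviations of same-numbered arrays correlated across genes at r = 0.14 and 0.05. With the number as a replicate block, 0 of 12267 genes passed (limma, 1917 at an unadjusted p under 0.05), and 0 chains, 0 activation genes and 0 ligand genes, with 4, 15 and 4 at an unadjusted p under 0.05. Transgenic replicate 3 has no partner in that fit. The block leaves fewer residual degrees of freedom than the 3 of the reported fit, so its counts of calls are not comparable with those reported.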
